A study of Mus musculus with 15 samples.

Results

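Nucleolar ribosome biogenesis factors are 59 genes, matched by symbol to the rows of 15 count tables of 17493 genes each, and all 59 were measured and passed the filter on low counts. They encode 4 subunits of RNA polymerase I, 4 proteins of box C/D and 5 of box H/ACA small nucleolar ribonucleoproteins (snoRNPs, with the snoRNP chaperone Nolc1 counted among the latter), 6 multifunctional nucleolar proteins, 20 factors of the small (40S) subunit and 20 of the large (60S) subunit. The members were chosen by name and function, with earlier results on these libraries known. The cells were CD8+ OT-I T lymphocytes, which carry a transgenic T cell receptor for an ovalbumin peptide, taken from the spleen and lymph nodes of female OT-1 mice (Charles River; C57BL/6-Tg(TcraTcrb)1100Mjb/Crl). Their age is not given in the sources used here. The 5 groups held 3 libraries each: unstimulated cells at 0 h, and cells kept for 8 h or 22 h with either stimulus. Immunofilaments (IF) are synthetic filaments that carried peptide-loaded MHC (pMHC(SIIT)) and interleukin-2 and were used at 5 ng/ml. The other stimulus, dendritic cells (DC), were Flt-3Ligand cells loaded with SIITFEKL, which is a peptide variant from ovalbumin, at 20000 per well with 50000 T cells. Viable CD8+ CD103- cells were sorted before lysis. The labels give interleukin-2 with the immunofilaments only, so the 2 stimuli differ in more than the presenting surface.

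Ribosomes are assembled in the nucleolus. RNA polymerase I transcribes the ribosomal RNA precursor, snoRNPs guide its modification, the small subunit processome and the 60S factors fold, cut and package it with ribosomal proteins, and late factors accompany the subunits to the cytoplasm. Activated T cells grow before they divide, and the genes of this pathway are among the known targets of the transcription factor MYC, which binds the E-box CACGTG together with MAX.

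Total counts ran from 2892874 to 19806730 per library. All 7 T cell markers in the tables were detected in every group and Cd8a ran from 419 to 999 CPM (counts per 1000000, scaled by the trimmed mean of M values, TMM), while Cd4 was at 0 in 14 of 15 libraries. The summed CPM of these T cell markers was lower in every stimulated group, at 7828 to 8479 in unstimulated cells, 4510.5 to 4659.5 in IF 8 h, 3637 to 4373 in DC 8 h, 5360.3 to 6232 in IF 22 h and 4021 to 5073 in DC 22 h, and the part of this in the results was not tested. Cd28, 1 of these 7 markers, went the other way with immunofilaments. It was at 148 to 211 CPM in unstimulated cells, 274 to 412 in IF 8 h and 498 to 554 in IF 22 h. In DC 8 h it was at 121 to 135 CPM and in DC 22 h at 87.3 to 129. 2 pairs of libraries stood apart from the rest. Replicate 2 of both DC groups is described with the results it touches. In IF 22 h, mitochondrial ribosomal RNA took 0.179% of counts in replicate 2 and 0.146% in replicate 3, against 1.82% to 4.49% in the other 13 libraries. The summed CPM of 18 dendritic cell markers was 1075 to 1913 in unstimulated cells, 493 to 767 in IF 8 h, 1238 to 1598 in DC 8 h, 600.3 to 853 in IF 22 h and 729 to 1012 in DC 22 h. Ccr7, in this sum, was at 206 to 344 CPM in every library, those without added dendritic cells included. The sum is therefore not a measure of dendritic cell RNA alone. The defining markers did not move one way. Zbtb46 was at 0 in every unstimulated and IF 8 h library and at 1.18 to 2.28 CPM in DC 8 h, while Itgax was at 12.8 to 16.3 CPM in unstimulated cells and 3.82 to 6.93 in DC 8 h, and Xcr1 at 9.54 to 45.6 and 2.35 to 3.35. Fscn1, an actin-bundling protein of mature dendritic cells, was at 126 to 168 CPM in DC 8 h, 72.9 to 94.8 in DC 22 h, at most 6.75 in unstimulated and IF 8 h libraries and 5.83 to 43.8 in IF 22 h. The part of dendritic cell RNA in the results was not tested.

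The 59 genes together took a larger share of the raw counts in each of the 12 stimulated libraries than in any unstimulated one, and after TMM scaling in 10 of the 12. The raw share was 0.487%, 0.460% and 0.468% in unstimulated replicates 1, 2 and 3. It was 0.888%, 0.713% and 0.872% in IF 8 h, 0.676%, 1.11% and 0.577% in DC 8 h, 0.675%, 0.629% and 0.745% in IF 22 h, and 0.711%, 1.31% and 0.567% in DC 22 h. Counting error is small beside these differences: the 95% Wilson interval of unstimulated replicate 1 was 0.482% to 0.492%, and such intervals cover counting error only. As mean ± SD over 3 libraries the raw share was 0.472% ± 0.014 in unstimulated cells, 0.824% ± 0.0967 in IF 8 h, 0.787% ± 0.282 in DC 8 h, 0.683% ± 0.0582 in IF 22 h and 0.861% ± 0.393 in DC 22 h. After TMM scaling, which the CPM and fold changes use, the share was 0.527% to 0.569% in unstimulated cells. Replicate 3 of DC 8 h, at 0.549%, and replicate 3 of DC 22 h, at 0.532%, lay within that range, and the other stimulated libraries lay between 0.641% and 1.18%. Nucleolin (Ncl) and nucleophosmin (Npm1) made up 32.3% to 43.1% of the members' counts. CPM are shares of a library, so in these bulk samples fewer cells expressing a gene and less RNA of it per cell cannot be told apart.

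**Figure D1:**
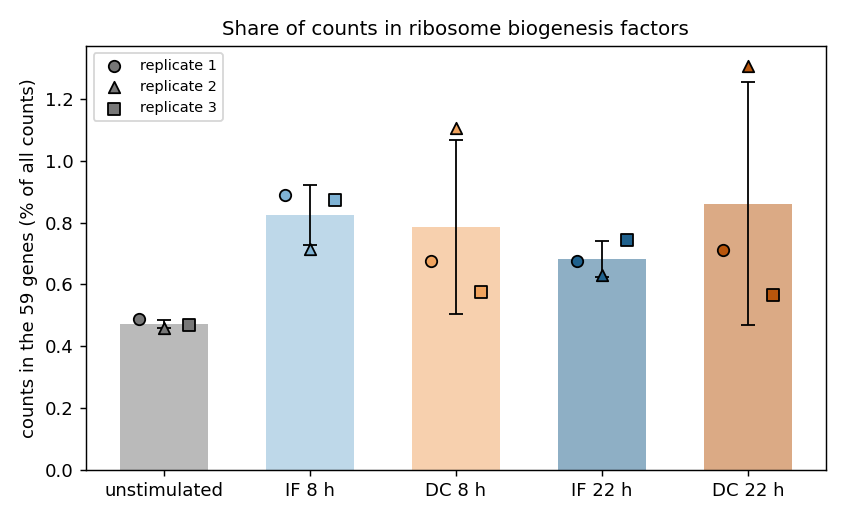
Share of each library's raw counts, without TMM scaling, that fell in the 59 genes, in percent, by group; bars are means, error bars SD of 3 libraries, and symbols mark the replicate number. Every stimulated library lies above the unstimulated ones at 0.460% to 0.487%, although after TMM scaling replicate 3 of both DC groups does not, and replicate 2 of the DC groups is the highest of its group at 1.11% and 1.31%.

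After 8 h with immunofilaments the members were higher as a group, and by moderate folds. The log2 fold change was above 0 for 55 of 59 members (93.2%), against 51.3% of all 10831 genes tested, and the median was 0.59, a 1.51-fold difference, against 0.02 for all genes. For 35 of 59 members (59.3%) all 3 IF 8 h libraries lay above all 3 unstimulated ones, which held for 14.2% of all genes, and for 1 member, Emg1, all 3 lay below, which held for 16.4% of all genes. In edgeR's quasi-likelihood test, with p adjusted by Benjamini-Hochberg over all genes, 3 members rose and 0 fell: Ncl, Wdr75 and Heatr1. That is 5.08% of the members, and 7.76% of all genes were called in either direction and 3.04% as higher, so the number of single genes called is near the background. At an unadjusted p below 0.05 there were 23 members (39%), against 22.9% of all genes. In a fit of the unstimulated and IF 8 h libraries alone, whose spread is not pooled with the DC groups, 28 members rose, and 13.7% of all genes were called. The count was 0 without unstimulated replicate 2 (3.92% of all genes called), and 1 (1.69%) without unstimulated replicate 3, IF 8 h replicate 1 or IF 8 h replicate 3 (4.08%, 4.04% and 3.75%).

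After 8 h with dendritic cells most members again had a log2 fold change above 0, but the libraries were further apart. The log2 fold change was above 0 for 54 of 59 members, against 53% of all genes, with a median of 0.48 against 0.04. Libraries did not overlap for 15 members that were higher (25.4%, against 13% of all genes) and for 1, Nop10, that was lower (against 15.2%). In edgeR's test 2 members rose (3.39%) and 0 fell, Wdr75 and Ncl, where 6.82% of all genes were called in either direction and 2.75% as higher. At an unadjusted p below 0.05 there were 13 members (22%), against 20.9% of all genes. The count was 1 (1.69%) without unstimulated replicate 1 or DC 8 h replicate 1 (4.03% and 4.47% of all genes called), and 0 without unstimulated replicate 2, unstimulated replicate 3 or DC 8 h replicate 2 (3.81%, 4.13% and 3.61%). Without DC 8 h replicate 2 the median was 0.14, and without replicate 3 the members free of overlap numbered 40 (67.8%, against 19.5% of all genes in the same 2 against 3 libraries).

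At 22 h most members again had a log2 fold change above 0 with either stimulus. In IF 22 h the log2 fold change was above 0 for 45 of 59 members (76.3%, against 51% of all genes), with a median of 0.24 against 0.01, and 18 members were higher without overlap (30.5%, against 15.7%) and 2 lower (3.39%, against 14.7%). None passed edgeR's test, where 6.08% of all genes were called. DESeq2 also called 0, and 6 members (10.2%) had an unadjusted p below 0.05 in edgeR, against 20.5% of all genes. Without IF 22 h replicate 1 the count was 1 (1.69%, against 8.49% of all genes). In DC 22 h the log2 fold change was above 0 for 52 members (88.1%, against 52.5% of all genes), with a median of 0.48 against 0.04, but only 9 members were higher without overlap (15.3%, against 12.8%). Ncl, Lyar and Wdr75 rose in edgeR's test and 0 members fell, where 7.76% of all genes were called in either direction and 3.41% as higher. At an unadjusted p below 0.05 there were 13 members (22%), against 22.2% of all genes. The count was 1 without unstimulated replicate 1 (4.31% of all genes called), 0 without unstimulated replicate 2, unstimulated replicate 3 or DC 22 h replicate 2 (4.06%, 4.34% and 4.85%), 8 (13.6%) without DC 22 h replicate 3 (8.81%), and 0 in a fit of the 2 groups alone, where 5.13% of all genes were called. Without DC 22 h replicate 2 the median was 0.004. Without replicate 2 of both DC groups 4 members passed in DC 22 h (6.78%, against 6.29% of all genes), Ncl, Wdr75 and Lyar as higher and Ltv1 as lower. The 4 comparisons share the same unstimulated libraries.

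**Figure D2:**
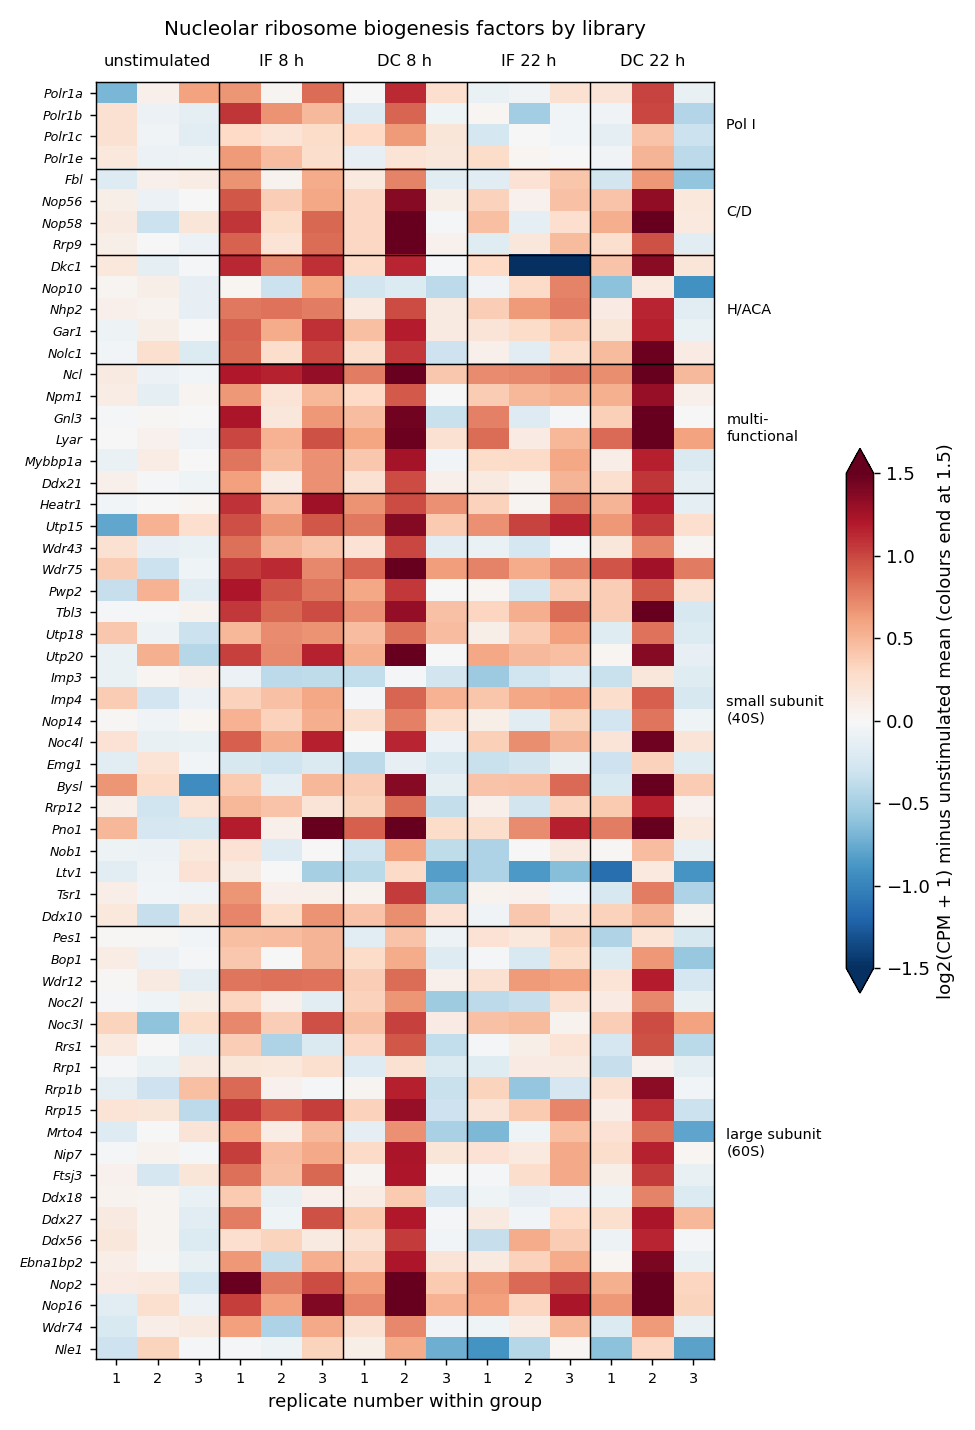
Each row is a member, grouped by role, and each column a library; colour is log2(CPM + 1) minus the mean of the unstimulated libraries, with colours ending at 1.5. Replicate 2 of the DC groups is above the unstimulated mean for 56 and 59 of the 59 members and the IF 8 h libraries for 46 to 56, while replicate 3 of the DC groups is above it for 26 and 22, and Dkc1 is blue in IF 22 h replicates 2 and 3 at 8.84 and 12.1 CPM.

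By role, the multifunctional proteins had the highest or next highest class median in each comparison with unstimulated cells, and the RNA polymerase I subunits the lowest or next lowest. In IF 8 h the median log2 fold change was 0.49 for the polymerase subunits, 0.66 for box C/D proteins, 0.79 for box H/ACA proteins, 0.71 for the multifunctional proteins, 0.58 for 40S factors and 0.39 for 60S factors. In DC 8 h the same medians were 0.35, 0.73, 0.48, 0.68, 0.47 and 0.45. In IF 22 h they were -0.08, 0.19, 0.30, 0.43, 0.27 and 0.23, and in DC 22 h 0.20, 0.58, 0.53, 0.75, 0.45 and 0.42. With replicate 2 of both DC groups left out, the 6 medians were 0.03, 0.16, 0.13, 0.17, 0.24 and 0.04 in DC 8 h and -0.21, 0.19, 0.07, 0.28, 0.07 and -0.03 in DC 22 h. Differences between classes were not tested. None of the 4 polymerase subunits and none of the 20 60S factors passed edgeR's test in any of the 4 comparisons with unstimulated cells, where 6.08% to 7.76% of all genes were called.

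**Figure D3:**
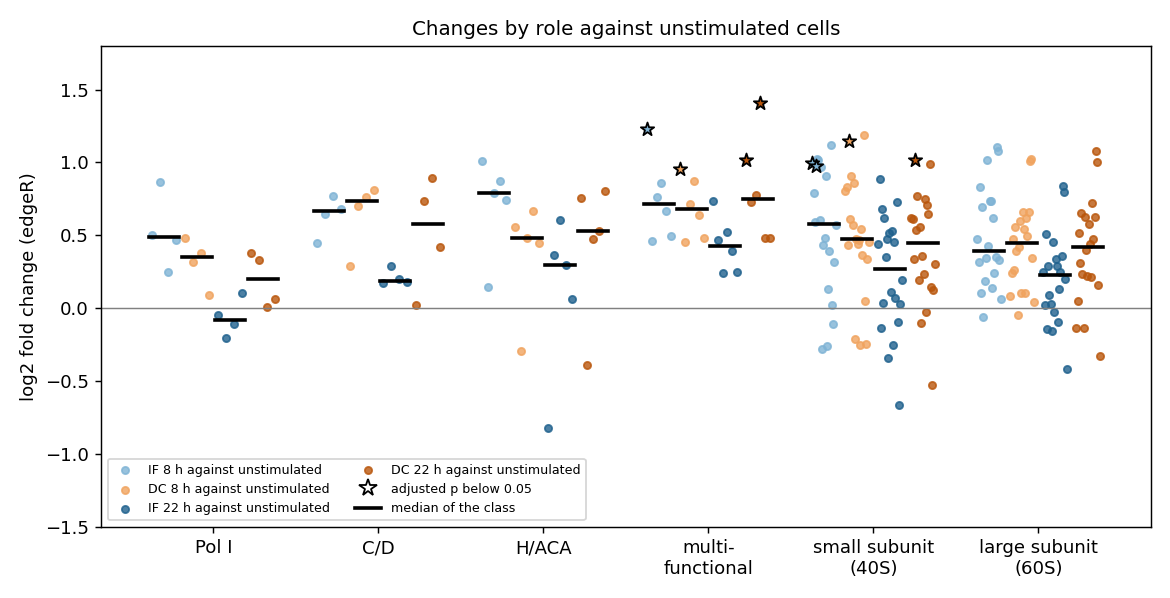
Log2 fold changes (edgeR) of the 59 members against unstimulated cells, by role class and comparison; dots are genes, black lines class medians, stars genes with an adjusted p below 0.05. The stars are Ncl, Wdr75, Heatr1 and Lyar, and most dots of every class lie above 0 except the polymerase subunits in IF 22 h, whose median is -0.08.

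Ncl encodes nucleolin, an abundant RNA-binding protein of the nucleolus that acts in precursor transcription and early processing. It was at 508, 437 and 449 CPM in the unstimulated replicates. It stood at 1068, 1037 and 1162 CPM in IF 8 h, 789, 1296 and 617 in DC 8 h, 756, 768 and 795 in IF 22 h, and 755, 1424 and 651 in DC 22 h. Every stimulated library lay above every unstimulated one. The log2 fold change was 1.23 ± 0.265 (SE) in IF 8 h (edgeR adjusted p = 0.0102), 0.95 ± 0.264 in DC 8 h (0.0373) and 1.02 ± 0.264 in DC 22 h (0.0250). In IF 22 h it was 0.73 ± 0.263 with an edgeR adjusted p of 0.117. The call was lost in 2 of 14 alternatives for IF 8 h, in the omission of unstimulated replicate 2 (edgeR adjusted p = 0.0504) and at a threshold of 0.01, and in 6 of 15 each for DC 8 h and DC 22 h. The latter include the omission of any unstimulated library, of DC 8 h replicate 1 or 2, and of DC 22 h replicate 2. Without replicate 2 of both DC groups the log2 fold change was 0.59 in DC 8 h (edgeR adjusted p = 0.0119) and 0.62 in DC 22 h (0.00902). Ncl was also the only member past the threshold when all 5 groups were tested together (edgeR adjusted p = 0.0373), where 11.8% of all genes were called. That count was 0 without any one of 8 libraries: all 3 unstimulated, all 3 IF 8 h and IF 22 h replicates 2 and 3 (7.39% to 9.99% of all genes called). It was 2 (3.39%) without DC 8 h replicate 2 or 3, IF 22 h replicate 1 or DC 22 h replicate 3 (10.3% to 15.2%), and 7 (11.9%) without DC 22 h replicate 2, where 13.7% of all genes were called. Snora75, a small nucleolar RNA with a row of its own in the tables, shares 133 exonic bases with Ncl on the same strand in the GENCODE vM21 annotation, so their counts may be mixed.

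Wdr75 encodes a WD-repeat protein of the small subunit processome, in the subcomplex that also takes part in precursor transcription. It was at 20.4, 12.1 and 14.7 CPM in unstimulated cells. The values were 32.8, 34.5 and 26.0 CPM in IF 8 h, 29.0, 51.5 and 24.4 in DC 8 h, 26.4, 23.1 and 26.5 in IF 22 h, and 30.4, 38.3 and 27.1 in DC 22 h. No stimulated library was as low as the unstimulated ones. The log2 fold change was 0.98 ± 0.283 (SE) in IF 8 h (edgeR adjusted p = 0.0447), 1.15 ± 0.279 in DC 8 h (0.0188), 0.68 ± 0.278 in IF 22 h (0.167) and 1.01 ± 0.278 in DC 22 h (0.0331). The call was lost in 7 of 14 alternatives for IF 8 h, 5 of 15 for DC 8 h and 7 of 15 for DC 22 h, with edgeR adjusted p up to 0.175, 0.121 and 0.142. These include the omission of unstimulated replicate 2 or 3 in each comparison, of any IF 8 h library, of DC 8 h replicate 2, and of DC 22 h replicate 1 or 2.

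Heatr1, the largest protein of the same subcomplex, was at 43.3, 45.0 and 45.6 CPM in unstimulated cells and at 95.6, 62.0 and 109 CPM in IF 8 h. It was at 72.0, 88.9 and 72.5 CPM in DC 8 h, 57.0, 46.1 and 77.7 in IF 22 h and 63.8, 102 and 40.2 in DC 22 h. All libraries except DC 22 h replicate 3 lay above the unstimulated ones. It rose in IF 8 h (log2 fold change 1.00 ± 0.292 SE, edgeR adjusted p = 0.0471), and the value in DC 8 h was 0.80 ± 0.290 (0.113). The IF 8 h call was lost in 8 of 14 alternatives (edgeR adjusted p up to 0.169), among them the omission of any unstimulated library or of IF 8 h replicate 1 or 3. With the replicate block its adjusted p was 0.0652. Heatr1 shares 155 exonic bases with Lgals8 on the opposite strand, and the use of strand in the authors' counting is not given in the sources used here.

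Lyar, a zinc finger protein of the nucleolus that promotes precursor processing, had unstimulated values of 45.7, 47.9 and 44.0 CPM. In IF 8 h it was at 93.1, 66.0 and 90.0 CPM, in DC 8 h at 69.8, 128 and 53.7, in IF 22 h at 82.7, 49.8 and 64.9, and in DC 22 h at 83.7, 212 and 70.0. All 12 stimulated libraries were higher than the unstimulated ones. Lyar rose in DC 22 h (log2 fold change 1.41 ± 0.373 SE, edgeR adjusted p = 0.0280), by the largest log2 fold change of any member in the 4 comparisons. Without replicate 2 of both DC groups that change was 0.77 (edgeR adjusted p = 0.0494). The call was lost in 6 of 15 alternatives (edgeR adjusted p up to 0.172), among them the omission of any unstimulated library or of DC 22 h replicate 2 alone.

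**Figure D4:**
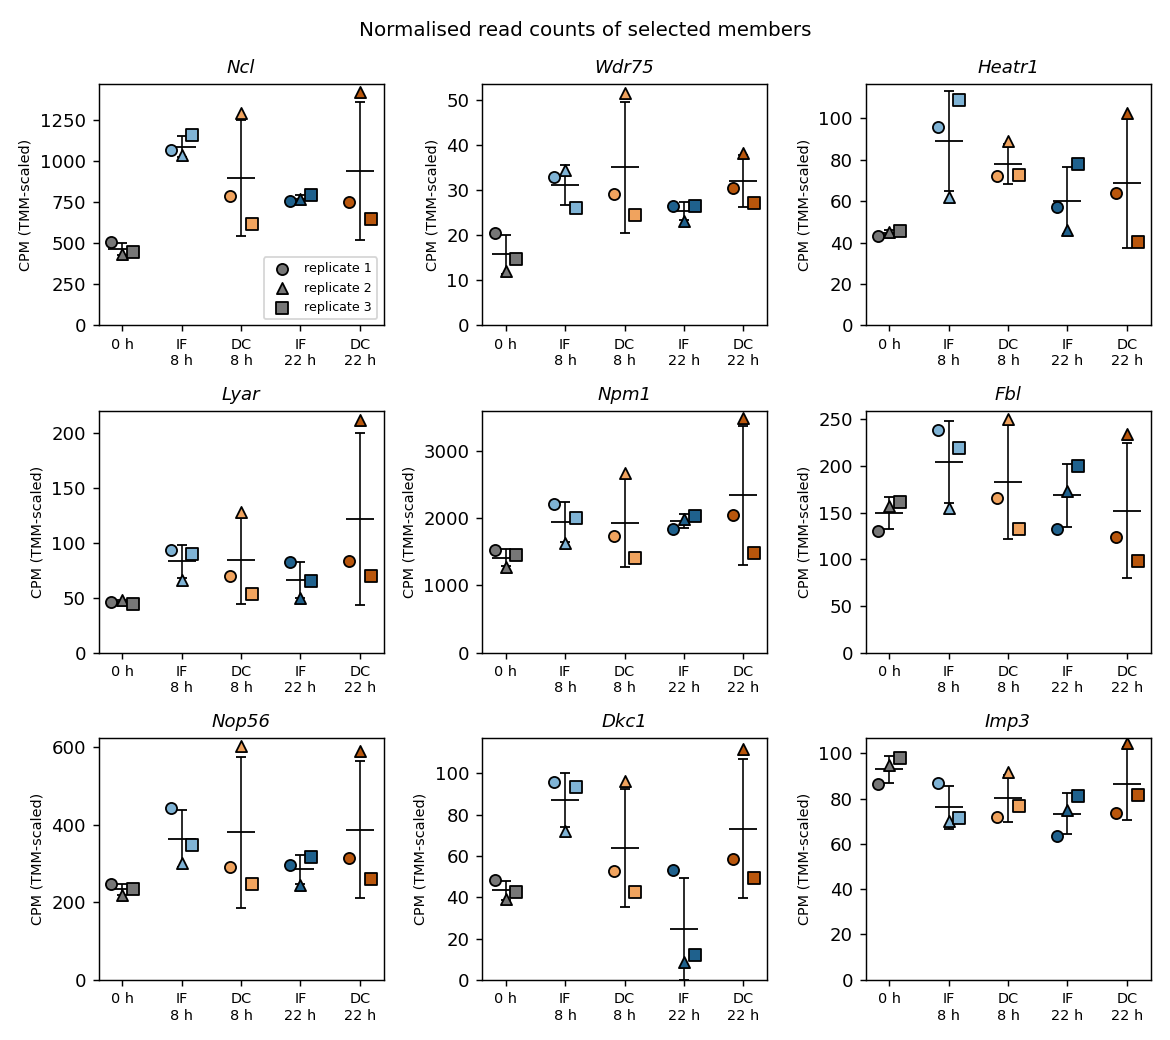
CPM by group for 9 members; symbols mark the replicate, horizontal dashes the mean and bars SD of 3 libraries. Ncl, Wdr75 and Lyar are above the unstimulated range in all 12 stimulated libraries, Dkc1 drops to 8.84 and 12.1 CPM in 2 IF 22 h libraries, and Imp3 shows no increase.

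The promoters of the 4 members that passed the test in at least 1 comparison with unstimulated cells are shown, because the calls above rest on these genes. The sequences are the 250 bases before the RefSeq start of each gene (GRCm38.p6), with the ETS core CCGGAA in capitals where it occurs on either strand. The E-box CACGTG was searched on both strands and occurs in none of the 4.
Ncl, chr1:86359456-86359705, minus strand: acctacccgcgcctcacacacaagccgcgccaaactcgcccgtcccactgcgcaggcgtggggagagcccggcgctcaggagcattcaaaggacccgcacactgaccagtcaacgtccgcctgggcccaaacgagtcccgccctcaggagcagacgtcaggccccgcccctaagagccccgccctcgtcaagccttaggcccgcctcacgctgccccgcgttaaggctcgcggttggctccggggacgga
Wdr75, chr1:45794916-45795165, plus strand: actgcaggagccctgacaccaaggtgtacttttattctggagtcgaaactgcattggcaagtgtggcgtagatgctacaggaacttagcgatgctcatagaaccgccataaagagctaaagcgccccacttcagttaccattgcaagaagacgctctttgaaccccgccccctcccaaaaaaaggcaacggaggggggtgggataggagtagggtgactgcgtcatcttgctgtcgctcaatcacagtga
Heatr1, chr13:12395125-12395374, plus strand: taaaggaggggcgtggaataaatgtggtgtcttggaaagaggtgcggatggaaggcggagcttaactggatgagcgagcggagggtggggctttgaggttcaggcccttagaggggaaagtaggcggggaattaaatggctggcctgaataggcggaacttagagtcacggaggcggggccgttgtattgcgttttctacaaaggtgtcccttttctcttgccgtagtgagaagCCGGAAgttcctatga
Lyar, chr5:38220232-38220481, plus strand: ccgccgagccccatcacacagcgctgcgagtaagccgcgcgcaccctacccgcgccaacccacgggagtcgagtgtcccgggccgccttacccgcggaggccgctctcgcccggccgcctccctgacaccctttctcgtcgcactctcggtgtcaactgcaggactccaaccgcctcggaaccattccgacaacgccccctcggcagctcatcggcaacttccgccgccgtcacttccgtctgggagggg
The ETS core is the DNA motif of a family of transcription factors used by many housekeeping promoters. Only the form CCGGAA was searched, and among these 4 that form occurs only in the Heatr1 sequence. Other forms of the motif were not searched, so their absence is not shown. For Heatr1 the RefSeq and GENCODE vM21 starts differ. The GENCODE model starts at chr13:12395027, before the printed window, so that whole window and its ETS core lie inside the gene model. For Lyar the GENCODE model starts at chr5:38220470, so only the end of its window lies inside the gene model. Which start was used in these cells was not tested.

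Promoters of 53 of the 59 members were found in the RefSeq table, as 57 windows of 300 bases, from 250 before to 50 after the start. Rrp12, Fbl, Bop1, Npm1, Rrs1 and Tbl3 were not matched. The E-box was found in 11 of 57 windows (19.3%), against 10.25% of the windows of all genes tested and 7.15% of all windows of the table. The ETS core was found in 45.61% of the members' windows, against 29.23% and 14.9%. The CCAAT box (CCAAT) was in 36.84%, against 38.11% and 37.41%, and the GC box (GGGCGG) in 70.18%, against 63.16% and 35.66%, all on both strands. None of the 4 motifs contains another, and the median GC content of the members' windows was close to that of genes tested, which was 60.67%. Of the 11 E-boxes, 8 lay after the start, by 3 to 41 bases, and 3 before it. The following 6 sites, in capitals with their flanks, show both positions, in members with high and with low changes, and were picked after their values were seen.
Nop2, chr6:125131813-125131838, plus strand: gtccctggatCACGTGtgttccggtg
Utp18, chr11:93885771-93885796, minus strand: gagcgccggtCACGTGgcttgcggcg
Pes1, chr11:3963967-3963992, plus strand: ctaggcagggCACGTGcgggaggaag
Pno1, chr11:17211540-17211562, minus strand: tacaaccacgCACGTGttcctct
Wdr43, chr17:71616222-71616247, plus strand: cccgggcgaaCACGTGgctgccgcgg
Ltv1, chr10:13193094-13193119, minus strand: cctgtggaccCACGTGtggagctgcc
The first 2 sites lie 60 and 20 bases before the start and the other 4 lie 3, 38, 18 and 29 bases after it. For members with an E-box the median log2 fold change was 0.59 over 11 genes, against 0.66 over the 42 without, in IF 8 h, 0.48 against 0.49 in DC 8 h, 0.35 against 0.22 in IF 22 h and 0.34 against 0.50 in DC 22 h. Ltv1, with an E-box, had log2 fold changes of -0.11, -0.25, -0.66 and -0.53 in these 4 comparisons. Whether any factor occupied these sites was not measured.

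Myc itself passed edgeR's test in no comparison. It was at 37.7, 33.8 and 40.3 CPM in unstimulated cells, 80.3, 47.4 and 49.8 in IF 8 h, 50.1, 110.0 and 38.2 in DC 8 h, 34.2, 53.7 and 60.2 in IF 22 h and 31.2, 100.6 and 34.4 in DC 22 h. The highest library was replicate 2 in both DC groups. Its log2 fold changes against unstimulated cells were 0.68 ± 0.433 (SE, edgeR adjusted p = 0.379) in IF 8 h, 0.83 ± 0.429 (0.286) in DC 8 h, 0.41 ± 0.428 (0.648) in IF 22 h and 0.57 ± 0.428 (0.461) in DC 22 h. With replicate 2 of both DC groups left out they were 0.24 ± 0.258 (0.679) in DC 8 h and -0.16 ± 0.260 (0.794) in DC 22 h, so the sign at 22 h turned.

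Among the RNA polymerase I subunits, Polr1b, the second largest subunit, was at 6.31, 4.88 and 4.66 CPM in unstimulated cells and at 12.1, 8.95 and 7.77 CPM in IF 8 h. It was at 4.46, 10.4 and 4.99 CPM in DC 8 h, 5.36, 3.35 and 5.05 in IF 22 h and 5.01, 11.5 and 3.59 in DC 22 h. Polr1c, a subunit shared with RNA polymerase III, was at 97.3, 79.3 and 73.1 CPM in unstimulated cells, 102, 95.5 and 100.5 in IF 8 h, 102, 129 and 94.1 in DC 8 h, 68.6, 82.6 and 80.1 in IF 22 h and 74.7, 111 and 66.1 in DC 22 h. In this class only Polr1b and Polr1e, and only in IF 8 h, were free of overlap with unstimulated cells, where 14.2% of all genes were higher without overlap in IF 8 h and 12.8% to 15.7% in the other comparisons. Polr1e, a subunit that helps recruit the polymerase to its template, had 30.2 to 35.8 CPM in unstimulated cells and 38.8 to 50.3 in IF 8 h. The 3′ end of the Polr1b transcript is similar to many other transcripts, so its counts are uncertain.

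In the box C/D snoRNP, Nop56 and Nop58 form the core and fibrillarin (Fbl) is the methyltransferase. Nop56 was at 247, 220.1 and 233 CPM in unstimulated cells, 444, 301 and 349 in IF 8 h, 290.4, 604 and 247 in DC 8 h, 297, 244 and 317 in IF 22 h and 314, 589.8 and 260.5 in DC 22 h. Nop58 was at 85.0, 61.6 and 87.3 CPM in unstimulated cells, 164, 93.2 and 141 in IF 8 h, 96.0, 225 and 75.8 in DC 8 h, 106, 70.3 and 91.9 in IF 22 h and 113, 237 and 85.5 in DC 22 h. Fbl was at 130.5, 157 and 162 CPM in unstimulated cells, 238, 154 and 219 in IF 8 h, 165, 251 and 133 in DC 8 h, 132, 173 and 199.7 in IF 22 h and 123.4, 234 and 98.5 in DC 22 h. Both core proteins were higher without overlap in IF 8 h, which held for 14.2% of all genes. Nop56, but not Nop58, was also so in DC 8 h (13% of all genes) and DC 22 h (12.8%). Fbl overlapped the unstimulated range in every group. Rrp9, a protein of the U3 snoRNP, was at 62.1 to 70.6 CPM in unstimulated cells and 76.3 to 123.3 in IF 8 h. Processed pseudogenes with near-identical 3′ ends exist for Fbl and Nop56.

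In the box H/ACA snoRNP, which converts uridine to pseudouridine, the catalytic subunit dyskerin (Dkc1) was at 48.4, 39.2 and 42.4 CPM in unstimulated cells and at 96.0, 71.9 and 93.2 CPM in IF 8 h. It was at 52.9, 96.4 and 42.6 CPM in DC 8 h and 58.6, 111.6 and 49.2 in DC 22 h. In IF 22 h it was at 53.2 CPM in replicate 1 but at 8.84 and 12.1 CPM in replicates 2 and 3. Dkc1 was the only 1 of 59 members that lay more than 2-fold below each of the other 13 libraries in both of these. The same held for 127 of the 10831 genes tested, so the members' share is near that of all genes. The same 2 libraries had the low mitochondrial ribosomal RNA given above, and its part in the Dkc1 values was not tested. The log2 fold change of Dkc1 between IF 22 h and IF 8 h was -1.83 ± 0.513 (SE, edgeR adjusted p = 0.106).

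Nop10, a small core protein of the same complex, had log2 fold changes below 0 in the DC groups, unlike the other members of its class. It was at 323, 334 and 288 CPM in unstimulated cells, 321, 252 and 474 in IF 8 h, 259, 272 and 238 in DC 8 h, 303, 384 and 528 in IF 22 h and 205, 348 and 167 in DC 22 h. Its log2 fold change was -0.30 ± 0.266 (SE) in DC 8 h and -0.39 ± 0.266 in DC 22 h, neither past edgeR's threshold. Nhp2 and Gar1, which complete the complex, were higher without overlap in IF 8 h, DC 8 h and IF 22 h (14.2%, 13% and 15.7% of all genes). Nhp2 had 120.3 to 137 CPM in unstimulated cells and 223 to 230.1 in IF 8 h. Gar1 had 59.01 to 66.3 CPM in unstimulated cells and 92.5 to 134 in IF 8 h.

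Npm1, the histone chaperone and 60S export factor nucleophosmin, was at 1519, 1268 and 1450 CPM in unstimulated cells, 2212, 1624 and 1996 in IF 8 h and 1730, 2669 and 1406 in DC 8 h. It was at 1834, 1988 and 2035 CPM in IF 22 h and 2044, 3486 and 1484 in DC 22 h. Both IF groups were free of overlap with unstimulated cells and both DC groups overlapped them through replicate 3. Its log2 fold change was 0.46 ± 0.257 (SE) in IF 8 h, 0.45 ± 0.257 in DC 8 h, 0.47 ± 0.257 in IF 22 h and 0.73 ± 0.258 in DC 22 h (edgeR adjusted p = 0.0998). It was 0.14 in DC 8 h and 0.34 in DC 22 h without replicate 2 of both DC groups. Gnl3 (nucleostemin) had 48.3 to 49.3 CPM in unstimulated cells and 55.0 to 115 in IF 8 h. Mybbp1a had 84.8 to 98.0 CPM and 127 to 159, and the RNA helicase Ddx21 205 to 225 and 229.8 to 345, so that all 6 multifunctional proteins were free of overlap in IF 8 h (14.2% of all genes). In DC 8 h that held for 2 of the 6 (13% of all genes), in IF 22 h for 4 (15.7%) and in DC 22 h for 2 (12.8%).

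Among the 20 factors of the 40S subunit, 11 were higher without overlap in IF 8 h (14.2% of all genes) and 6 in DC 8 h (13%). In IF 22 h there were 6 (15.7%) and in DC 22 h 1, Wdr75 (12.8%). These counts were not tested against the shares of all genes. Tbl3, a processome scaffold protein, had 14.8 to 15.8 CPM in unstimulated cells and 28.5 to 32.8 in IF 8 h. It shares 2122 exonic bases with Noxo1 on the opposite strand, so its counts are uncertain. The methyltransferase Emg1, the U3-associated Imp3 and the late factor Ltv1 had log2 fold changes below 0 in all 4 comparisons. Imp3 was at 86.3 to 98.0 CPM in unstimulated cells and 63.4 to 81.3 in IF 22 h, and Ltv1 at 71.6 to 94.0 and 43.7 to 58.2, both without overlap. None of these 3 passed edgeR's test with all libraries. Without replicate 2 of both DC groups Ltv1 fell in DC 22 h, with a log2 fold change of -1.01 (edgeR adjusted p = 0.0122) in place of -0.53. Nob1, the endonuclease of the last cut of the small subunit RNA, had log2 fold changes of 0.02, 0.05, -0.09 and 0.15.

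Among the 20 factors of the 60S subunit, 9 were higher without overlap in IF 8 h, 4 in DC 8 h, 6 in IF 22 h and 4 in DC 22 h, against the same shares of all genes. Nop16 was at 17.3, 23.1 and 18.2 CPM in unstimulated cells, 40.7, 30.2 and 52.5 in IF 8 h, 32.8, 57.9 and 28.3 in DC 8 h, 30.2, 24.5 and 46.5 in IF 22 h and 31.0, 62.3 and 24.6 in DC 22 h. Nop16 was above the unstimulated range in all 12 libraries, and its log2 fold change was 1.08 ± 0.367 (SE) in IF 8 h (edgeR adjusted p = 0.0860). The RNA methyltransferase Nop2 had a log2 fold change of 1.11 ± 0.377 there (0.0858). Pes1, Bop1 and Wdr12 form 1 complex of 60S processing. Pes1 was at 94.98, 94.9 and 91.0 CPM in unstimulated cells, 128, 129 and 134 in IF 8 h, 83.0, 127 and 88.5 in DC 8 h, 109, 104 and 121 in IF 22 h and 68.4, 108 and 78.9 in DC 22 h. It was above the unstimulated range in both IF groups, and below it in replicates 1 and 3 of both DC groups. Wdr12 had 21.6 to 26.4 CPM in unstimulated cells and 42.5 to 43.4 in IF 8 h, and Bop1 158 to 181 and 166 to 239. The 3′ end of the Wdr12 transcript is 97.5% identical to Pms1 over 403 aligned bases, so its counts are uncertain.

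For 111 other genes of the pathway that passed the filter, the median log2 fold change was 0.30 in IF 8 h, 0.34 in DC 8 h, 0.11 in IF 22 h and 0.34 in DC 22 h. In IF 8 h 5 rose and 0 fell in edgeR's test, led by Fcf1, a nuclease-fold protein of the processome (log2 fold change 0.86 ± 0.181 SE, adjusted p = 0.00863), Rcl1 (1.13 ± 0.317, 0.0396) and Wdr18 (1.24 ± 0.353, 0.0424). Fcf1 was at 55.3 to 66.7 CPM in unstimulated cells and 104 to 112.3 in IF 8 h. These 5 are 4.5% of the 111, against 7.76% of all genes. In DC 8 h none passed, with 22 at an unadjusted p below 0.05 (19.8%, against 20.9% of all genes). In IF 22 h the helicase Ddx24 fell by 0.56 ± 0.160 (log2, SE, edgeR adjusted p = 0.0483). In DC 22 h the exosome nuclease Dis3 (1.71 ± 0.450 SE, edgeR adjusted p = 0.0272) and Cirh1a (also named Utp4; 1.13 ± 0.313, 0.0342) rose, and the 60S factor Nsa2 fell by 0.49 ± 0.138 (0.0377). Apart from Fcf1, which lost its call in 0 of 14 alternatives, these calls depended on single libraries. Ddx24 lost its call in 11 of 15 alternatives (log2 fold change -0.70 to -0.31, edgeR adjusted p up to 0.708), Nsa2 in 10 of 15, Cirh1a in 8 of 15 and Dis3 in 7 of 15. Those 4 lost it without any one of the unstimulated libraries, and further without IF 22 h replicate 2 or 3 for Ddx24, DC 22 h replicate 1 or 2 for Nsa2 and Cirh1a, and DC 22 h replicate 2 for Dis3. Rcl1 and Wdr18 lost it in 7 of 14 alternatives each, among them the omission of any one of the 6 libraries compared. The 10 tested genes of the RNA polymerase I machinery outside the members had medians of -0.01, -0.03, -0.24 and -0.04. In IF 22 h 3 of the 10 had a log2 fold change above 0. By replicate, Twistnb (also named Polr1f) was at 55.0, 17.8 and 17.7 CPM there. Taf1d was at 40.1, 15.7 and 13.2 and Ttf1 at 35.5, 13.3 and 12.9, while Ubtf was at 50.0, 62.7 and 67.5. Replicates 2 and 3 are those with low mitochondrial ribosomal RNA, and their part in the median of -0.24 was not tested.

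Within the DC groups 1 library set most of the spread. Replicate 2 was the highest of its 3 libraries for 59 of 59 members in DC 8 h and for 59 of 59 in DC 22 h, which held for 36.1% and 39.2% of all genes tested. Over all 15 libraries the highest value was in DC 22 h replicate 2 for 29 members and in DC 8 h replicate 2 for 22. Relative to the mean of the other 2 libraries, replicate 2 was higher by a median of 1.85-fold at 8 h, from 1.09-fold for Nop10 to 2.60-fold for Nop58, and by a median of 2.02-fold at 22 h, from 1.23-fold for Rrp1 to 2.99-fold for Bysl. The medians over all genes were 0.967-fold and 0.972-fold. The median SD of log2(CPM + 1) over the members was 0.17 in unstimulated cells, 0.26 in IF 8 h and 0.23 in IF 22 h, but 0.55 in DC 8 h and 0.62 in DC 22 h, where the median over all genes was 0.31 and 0.34. By library, the members' median difference from the unstimulated mean was 0.30, 1.03 and -0.02 in DC 8 h and 0.18, 1.06 and -0.11 in DC 22 h (log2), against 0.73, 0.33 and 0.59 in IF 8 h. Replicate 3 of the DC groups lay near the unstimulated level. In DC 22 h replicate 3, 9 members were above the unstimulated range and 27 below it, against 29.9% and 28.7% of all genes, and in DC 8 h replicate 3 these were 17 and 19 members, against 30.6% and 29.4%. Replicate 2 lay between the other 2 libraries of its group in depth, at 7729279 and 8185466 counts. Its summed CPM of the 18 dendritic cell markers was the lowest of its group at both times, at 1238 against 1460 and 1598 in DC 8 h and 729 against 975 and 1012 in DC 22 h. Of these sums, Ccr7 made 330 CPM in replicate 2 against 309 and 344 in DC 8 h, and 227 against 283 and 322 in DC 22 h. Replicate 2 was the lowest library for 7 of 18 markers at 8 h and for 10 at 22 h, and the highest for 4 at each time. Replicates 1 and 3 were the lowest for 4 and 7 markers at 8 h and for 2 and 5 at 22 h. The part of this difference in the members' values was not tested. The titles of both libraries end in Don2, which may name a donor, though the labels do not spell it out. In unstimulated cells, IF 8 h and IF 22 h the library with that ending had the lowest raw share of its group, at 0.460%, 0.713% and 0.629%. After TMM scaling that held in unstimulated cells and IF 8 h, but in IF 22 h the lowest was replicate 1, at 0.641% against 0.662%.

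Between immunofilaments and dendritic cells no member passed edgeR's test at 8 h or at 22 h. At 8 h the median log2 fold change of IF over DC was 0.04, with 40 of 59 members above 0 (48.9% of all genes), 0 members called and 0 at an unadjusted p below 0.05, where 0.665% of all genes were called and 8.27% had such a p. At 22 h the median was -0.23, with 11 of 59 members above 0 (48% of all genes), 0 members called and 4 at an unadjusted p below 0.05, where 2.43% of all genes were called and 15.3% had such a p, and the count was 1 (1.69%) without IF 22 h replicate 1 or without DC 22 h replicate 2 (6.81% and 2.38% of all genes). DESeq2 called 0 members at both times. For Ncl the 95% interval of the log2 difference at 8 h was -0.28 to 0.83, and for Npm1 -0.54 to 0.55.

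Leaving out replicate 2 of both DC groups turned the direction at 22 h. The median of IF over DC then was 0.45 at 8 h and 0.24 at 22 h, and 3 members were called as higher with IF at each time, where edgeR called 0.881% and 3.11% of all genes. At 8 h these were Ncl (log2 difference 0.64, edgeR adjusted p = 0.0368), Nhp2 (0.66, 0.0496) and Noc4l (0.96, 0.0416). At 22 h they were Nhp2 (0.62, 0.0304), Nop10 (1.11, 0.0215) and Pes1 (0.59, 0.0282). These genes are named from a fit chosen after the values were seen, and each remaining DC group has 2 libraries.

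**Figure D5:**
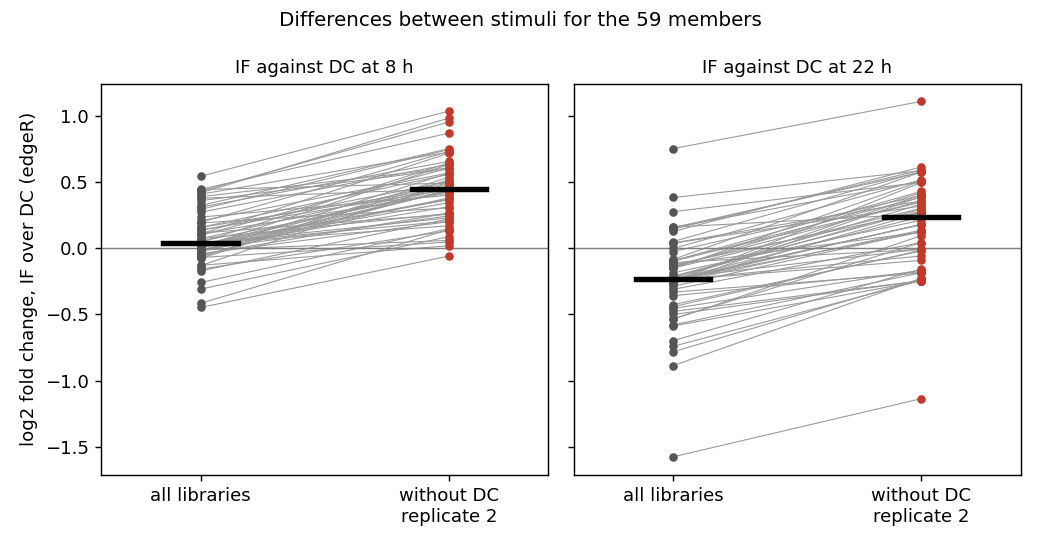
Log2 fold change of IF over DC (edgeR) for the 59 members at 8 h and 22 h, with all libraries (grey) and without DC replicate 2 (red); thin lines join the same gene and black bars are medians. The medians move from 0.04 to 0.45 at 8 h and from -0.23 to 0.24 at 22 h.

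Between the times, most members had a log2 fold change below 0 in IF 22 h against IF 8 h. The median was -0.35, with 9 of 59 above 0 (49.2% of all genes) and 16 lower without overlap (27.1%, against 9.37% of all genes). None passed edgeR's test, 4 had an unadjusted p below 0.05 (15% of all genes), and 1.12% of all genes were called. DESeq2 called 0, and the count was 1 without IF 22 h replicate 1 (4.85% of all genes). Between DC 22 h and DC 8 h the median was -0.08, 23 of 59 were above 0 (50.2% of all genes), 0 passed by edgeR or DESeq2 and 0 had an unadjusted p below 0.05 (9.03% of all genes), where 0.48% of all genes were called. That median ran from -0.46 to 0.33 over the omission of single libraries, the lowest without DC 22 h replicate 2 and the highest without DC 8 h replicate 2. In the interaction test, which asks whether the difference between IF and DC changed from 8 h to 22 h, 0 members passed by edgeR or DESeq2, 2 had an unadjusted p below 0.05 (7.92% of all genes) and 0% of all genes were called in edgeR. The count was 1 without IF 22 h replicate 1 (2.5% of all genes).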

How the data were processed

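Bulk RNA from mouse OT-I T cells (CD8+) was measured in 15 libraries with an adapted CEL-seq protocol, which counts the 3′ ends of transcripts, on an Illumina NextSeq, per the labels' protocols. The deposited tables hold whole-number counts per gene, without normalization. The submitters' processing notes name BWA and mm10; the counting program, annotation, use of strand and use of molecular identifiers are not given in the sources used here.

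The members, roles and lists were chosen with earlier results of these data known. The analysis used edgeR 4.0.16 under R 4.3.3 (TMM scaling; filterByExpr, minimum count 10 and minimum total 15; 10831 of 17493 genes kept; a quasi-likelihood fit of 5 group means over 15 libraries; two-sided; Benjamini-Hochberg over all genes; threshold 0.05). A member or gene is called where its adjusted p is below 0.05. Genes left out held at most 0.124% of the counts of any library. Fold changes use a prior count of 0.125 and per-library logs a pseudocount of 1. DESeq2 1.42.0 and limma 3.58.1 (loaded by edgeR) were used for alternatives; the fit was tested on simulated data. Levels are not compared between genes.

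Named with values in every library are the 2 members of each role with the smallest p over 5 groups, and Ncl, Npm1 and Fbl. In each comparison, up to 4 called members per direction, up to 3 other pathway genes per direction, and Myc are named; others were named after their values were seen. Gene models are from GENCODE vM21 (GRCm38, mm10) and promoters from RefSeq. Of the members, 24 share exonic bases with another gene and 13 have a 3′ end at least 95% identical over at least 100 bases to another gene's, so their counts may be mixed. Libraries of 1 group differed by 9.5 to 98.1 times counting variation (chi-square per degree of freedom) and none was a duplicate. The titles of the 3 libraries of a group end in Don1 to Don3, which may name donor animals but is not spelled out; if it does not, p-values measure only the spread between these samples, which may be technical. Wilson intervals of shares cover only counting error, because PCR copies of 1 molecule may be counted more than once. Precision is limited by 3 libraries per group and by 2892874 counts in the smallest library.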

Additional observations from a re-analysis of the deposited data

Results flagged for a closer look

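Wdr43, a small subunit processome protein, lay below the unstimulated mean in all 3 IF 22 h libraries and above it in all 3 DC 22 h libraries, with a log2 difference of IF over DC of -0.477 that did not pass the direct test (edgeR adjusted p = 0.394). The same gene lay above the unstimulated mean in all 3 IF 8 h libraries, on the other side from IF 22 h, with a log2 difference of -0.727 between the times (edgeR adjusted p = 0.192). Polr1c, a subunit of RNA polymerase I, showed the same opposite sides between IF 8 h and IF 22 h, with a log2 difference of -0.363 (edgeR adjusted p = 0.423).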

How the results depend on the processing

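The 8 member medians kept their sign under DESeq2 size factors and library size alone, and the 15 single-gene log2 fold changes kept theirs under those scalings and DESeq2's test, but the counts of called members depended on scaling and test; the cause was not tested. With library size alone, which put the median of all genes at 0.26, 0.30, 0.22 and 0.37 for IF 8 h, DC 8 h, IF 22 h and DC 22 h against unstimulated cells, 13, 7, 2 and 12 members passed (22%, 11.9%, 3.39% and 20.3%, against 10.3%, 9.96%, 7.74% and 14.6% of all genes), and 3 over the 5 groups (14.1% of all genes). Its member medians were 0.832 for IF 8 h and 0.442 for IF 22 h, and 31, 31 and 30 members did not overlap for DC 8 h, IF 22 h and DC 22 h (27.1%, 26.6% and 29.4% of all genes). Without the filter on low counts 22, 14, 6 and 14 members passed in those 4 comparisons, against 6.82%, 6.59%, 6.43% and 7.46% of 17123 genes, many of them with few counts, 4 for IF against DC at 22 h (4.12%), 2 for IF 22 h against 8 h (2.93%), 1 in the interaction (0.905%) and 21 over the 5 groups (14.1%). DESeq2 called 6 for IF 8 h (10.2%, against 11.7% of all genes) and 3 over the 5 groups (5.08%, against 20.9%). Fits of only the groups compared called 28 for IF 8 h (47.5%, against 13.7%), 5 for IF 22 h (8.47%, against 9.93%) and 0 for DC 22 h (against 5.13%). At a threshold of 0.01, 0 passed in every comparison.

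Leaving out each library in turn gave 0 to 2 members for IF 8 h and for DC 8 h, 0 to 1 for IF 22 h and 0 to 8 for DC 22 h. The ranges were 0 to 1 for IF against DC at 22 h, for IF 22 h against 8 h and for the interaction, and 0 to 7 over the 5 groups. Medians ran from 0.004 to 0.684 for DC 22 h, from -0.124 to 0.442 for IF against DC at 8 h and from -0.437 to 0.24 at 22 h. Members free of overlap ran from 15 to 40 for DC 8 h, from 18 to 26 for IF 22 h and from 9 to 27 for DC 22 h, where all genes ran from 16.5% to 19.9%, 18.9% to 23.7% and 15.7% to 20.3%; the 9 without DC 22 h replicate 2 are 15.3%, against 20.1%. Without replicate 2 of both DC groups, chosen after seeing the data, 1 member passed for DC 8 h, 4 for DC 22 h with Ltv1 lower, 3 for IF against DC at each time and 15 over the 5 groups (25.4%, against 15.4% of all genes), with medians of 0.004 for DC 22 h, 0.447 for IF against DC at 8 h and 0.24 at 22 h. With only replicate 1 of IF 22 h, also chosen after seeing the data, 28 members of IF 22 h did not overlap (47.5%, against 30.6% of all genes) and 0 passed over the 5 groups. Of the counts of nuclear genes only, the members' share was 0.554% in unstimulated cells, 0.957% in IF 8 h and 0.800% in IF 22 h. With TMM scaling the members' share of all counts was 0.545% in unstimulated cells.

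Titles end in Don1 to Don3, and whether equal endings mark 1 donor is not spelled out in the labels. Deviations of same-numbered libraries from their group means had a median correlation of 0.005 over 30 pairs (-0.24 to 0.49, with 4 above 0.1), against -0.005 over 60 pairs of different number (up to 0.27), and 7 of 15 libraries correlated best with their own number. Between DC 8 h and DC 22 h the same-numbered pairs were at 0.16, 0.49 and 0.30 for replicates 1, 2 and 3. Pairs of different number between these groups ran from -0.39 to 0.16. The main test of DC 22 h against DC 8 h used no pairing. With the replicate block 2 members passed for IF 8 h, 2 for DC 8 h, 0 for IF 22 h, 3 for DC 22 h and 1 over the 5 groups, where 7.08%, 6.59%, 5.89%, 7.25% and 10.8% of all genes passed, so that among the members only the call of Heatr1 in IF 8 h was lost. Among single genes, 122 alternative values stayed on their side of the threshold and 97 no longer passed, and depth limits genes such as Polr1b, at 3.35 to 12.1 CPM.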
